A study of Mus musculus with 12 samples.

Results

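The Hmx and Nkx homeobox genes were examined as targets of the histone acetyltransferase MOF in mouse visceral white adipose tissue (WAT). The 10 genes described were Hmx1, Hmx2, Hmx3, Nkx2-1, Nkx2-2, Nkx2-3, Nkx2-5, Nkx3-2, Nkx6-1 and Nkx6-2, out of 21938 protein-coding genes of GENCODE M21 on chromosomes 1 to 19, X and Y. They were chosen by their MOF peaks, so the presence and strength of those peaks is given as a description. Hmx2 and Hmx3 lie 3848 bp apart and were treated as 1 locus, which leaves 9 loci. A peak belonged to a gene when it overlapped the gene body or lay within 3 kb of any annotated start site.

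Binding of MOF was read from ChIP-seq, in which DNA bound by a protein is pulled down with an antibody and sequenced, in C57BL/6 mice (backcrossed with C57BL/6J according to the methods) that carried both copies of Mof (Mof+/+) or a single copy (Mof+/-). All animals were 8 weeks old and on a standard diet, and the heterozygous loss was not limited to fat by any tissue-specific Cre. The labels list 12 libraries in 6 groups of 2, namely MOF ChIP, histone H3 ChIP and input for each genotype. The design text counts 2 control and 3 Mof+/- animals, whereas the study's reporting summary gives 2 littermates of each genotype for ChIP-seq, and whether libraries were pooled for peak calling is not stated. A single peak list per genotype was analysed. The lists give no value per library and signal tracks were not analysed here, so differences between the genotypes have no error from animals behind them, and no test was made. Chromatin came from whole tissue, so fewer cells of a type and less MOF per cell cannot be told apart.

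MOF, also known as KAT8, acetylates histone H4, chiefly at lysine 16, as part of the MSL and NSL complexes, and NSL-bound MOF is found at the promoters of many active genes. Hmx and Nkx genes encode transcription factors with a homeodomain of the NK class. They are best known as regulators of organ identity in the embryo. Hmx genes act in the eye, the ear and the hypothalamus, and Nkx genes in organs such as the heart, thyroid, lung, spleen, pancreas, skeleton and ventral neural tube. They are not known as genes of the mature adipocyte. Most lie in long stretches rich in CpG dinucleotides.

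The 6 stretches of reference sequence below (GRCm38, written 5′ to 3′ along the strand of the gene, CpG in capitals) were picked to show the range of sites. The first was centred on the summit of a Mof+/- peak within an intron of Hmx2 (chr7:131555183-131555383, plus strand, 6 CpG), which lay inside the strongest Mof+/+ peak of all members. The next lay around the Mof+/+ summit before Hmx3 (chr7:131542278-131542478, plus strand, 13 CpG). The sites upstream of Nkx2-3 (chr19:43608204-43608404, plus strand, 2 CpG) and in an intron of Nkx2-5 (chr17:26844056-26844256, minus strand, 7 CpG) carried nearly the same summit in both genotypes. The promoter of Nkx6-2 (chr7:139582798-139583047, minus strand, 26 CpG) held a Mof+/+ peak alone, and that of Nkx2-1 (chr12:56536909-56537158, minus strand, 9 CpG) held none. Both promoters are the 250 bases before the RefSeq start site.
Hmx2 intron: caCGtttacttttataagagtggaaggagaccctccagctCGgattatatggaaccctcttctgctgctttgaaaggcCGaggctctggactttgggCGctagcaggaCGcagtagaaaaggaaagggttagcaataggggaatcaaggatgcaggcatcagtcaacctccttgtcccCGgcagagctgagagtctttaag
Hmx3 upstream: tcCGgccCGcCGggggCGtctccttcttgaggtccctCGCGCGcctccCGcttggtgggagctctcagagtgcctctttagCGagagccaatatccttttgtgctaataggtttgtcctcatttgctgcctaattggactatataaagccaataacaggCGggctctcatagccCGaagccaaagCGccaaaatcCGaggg
Nkx2-3 upstream: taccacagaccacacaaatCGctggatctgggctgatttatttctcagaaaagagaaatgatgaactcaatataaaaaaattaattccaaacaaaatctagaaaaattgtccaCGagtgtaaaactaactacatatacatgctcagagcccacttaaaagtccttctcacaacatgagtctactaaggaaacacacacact
Nkx2-5 intron: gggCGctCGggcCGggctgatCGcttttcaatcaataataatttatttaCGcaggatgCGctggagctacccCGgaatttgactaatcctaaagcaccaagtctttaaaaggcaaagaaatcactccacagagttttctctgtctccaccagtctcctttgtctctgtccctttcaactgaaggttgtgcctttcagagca
Nkx6-2 promoter: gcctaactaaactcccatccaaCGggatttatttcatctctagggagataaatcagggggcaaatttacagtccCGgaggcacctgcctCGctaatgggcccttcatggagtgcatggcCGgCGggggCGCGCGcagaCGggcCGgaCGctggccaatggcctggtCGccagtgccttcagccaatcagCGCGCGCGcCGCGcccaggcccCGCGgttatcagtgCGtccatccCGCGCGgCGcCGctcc
Nkx2-1 promoter: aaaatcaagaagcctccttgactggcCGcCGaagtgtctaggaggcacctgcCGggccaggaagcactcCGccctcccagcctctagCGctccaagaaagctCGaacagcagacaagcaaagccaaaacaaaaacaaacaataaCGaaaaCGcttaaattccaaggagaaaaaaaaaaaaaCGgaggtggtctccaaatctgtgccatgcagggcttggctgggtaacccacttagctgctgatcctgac

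There were 19773 peaks in Mof+/+ and 731 in Mof+/-. Of these, 19753 and 716 lay on chromosomes 1 to 19, X and Y, and shares and medians over a list refer to them. Fold enrichment is the ratio that the authors' peak caller made of fragments at the summit to the local input background. Fragments and background were recovered from that ratio and the p-value of the same peak, and the lowest background was 3.52 fragments in Mof+/+ and 2.26 in Mof+/-. At that background a peak needed at least 11 fragments in either list to reach the weakest listed p-value, which is a fold enrichment of 2.65 in Mof+/+ and of 3.68 in Mof+/-. At a higher background more fragments were needed and a lower fold enrichment was enough. A gene without a listed peak had no site past the threshold of that list and is not shown to lack MOF. Intervals of fragments are exact 95% Poisson intervals and cover counting error only.

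Of the 10 members, 7 had a Mof+/+ peak, against 44.5% of all protein-coding genes, and 5 had a Mof+/- peak, against 1.89%. All 5 with a Mof+/- peak were also among the 7, while over all genes 4.06% of those with a Mof+/+ peak also had a Mof+/- peak. Since the members were chosen by these peaks, nothing is read from the excess. Hmx2, Hmx3, Nkx2-3, Nkx2-5 and Nkx6-1 had peaks in both lists. Nkx3-2 and Nkx6-2 had a peak in Mof+/+ only, and Hmx1, Nkx2-1 and Nkx2-2 had none in either. In the plot of the strongest peak per gene, these 3 classes stand side by side.

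**Figure D1:**
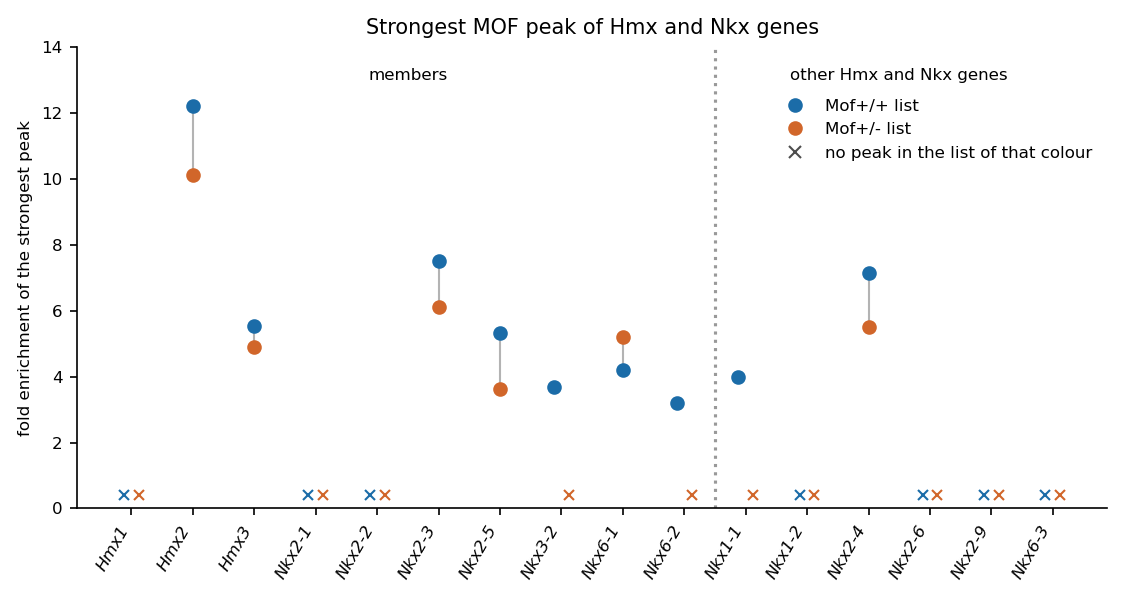
Fold enrichment of the strongest peak (vertical axis, ratio to input) of the 10 members and of other Hmx and Nkx genes, in the Mof+/+ list (blue) and the Mof+/- list (orange). A cross marks a gene with no listed peak in that list, and Hmx2 stands highest in both, at 12.2 and 10.1.

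Across the members there were 31 peaks, 19 in Mof+/+ and 12 in Mof+/-. The median fold enrichment of the Mof+/+ member peaks was 3.76, against 3.40 over the list, with a range of 2.44 to 12.2. Their median width was 1249 bp against 609 bp over the list, and 12 of 19 were wider than the list median. In Mof+/- the median fold enrichment was 4.48 against 4.29 and the median width 623.5 bp against 434.5 bp over the list. Member peaks rested on 11 to 55 fragments in Mof+/+ and on 12 to 32 in Mof+/-.

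**Figure D2:**
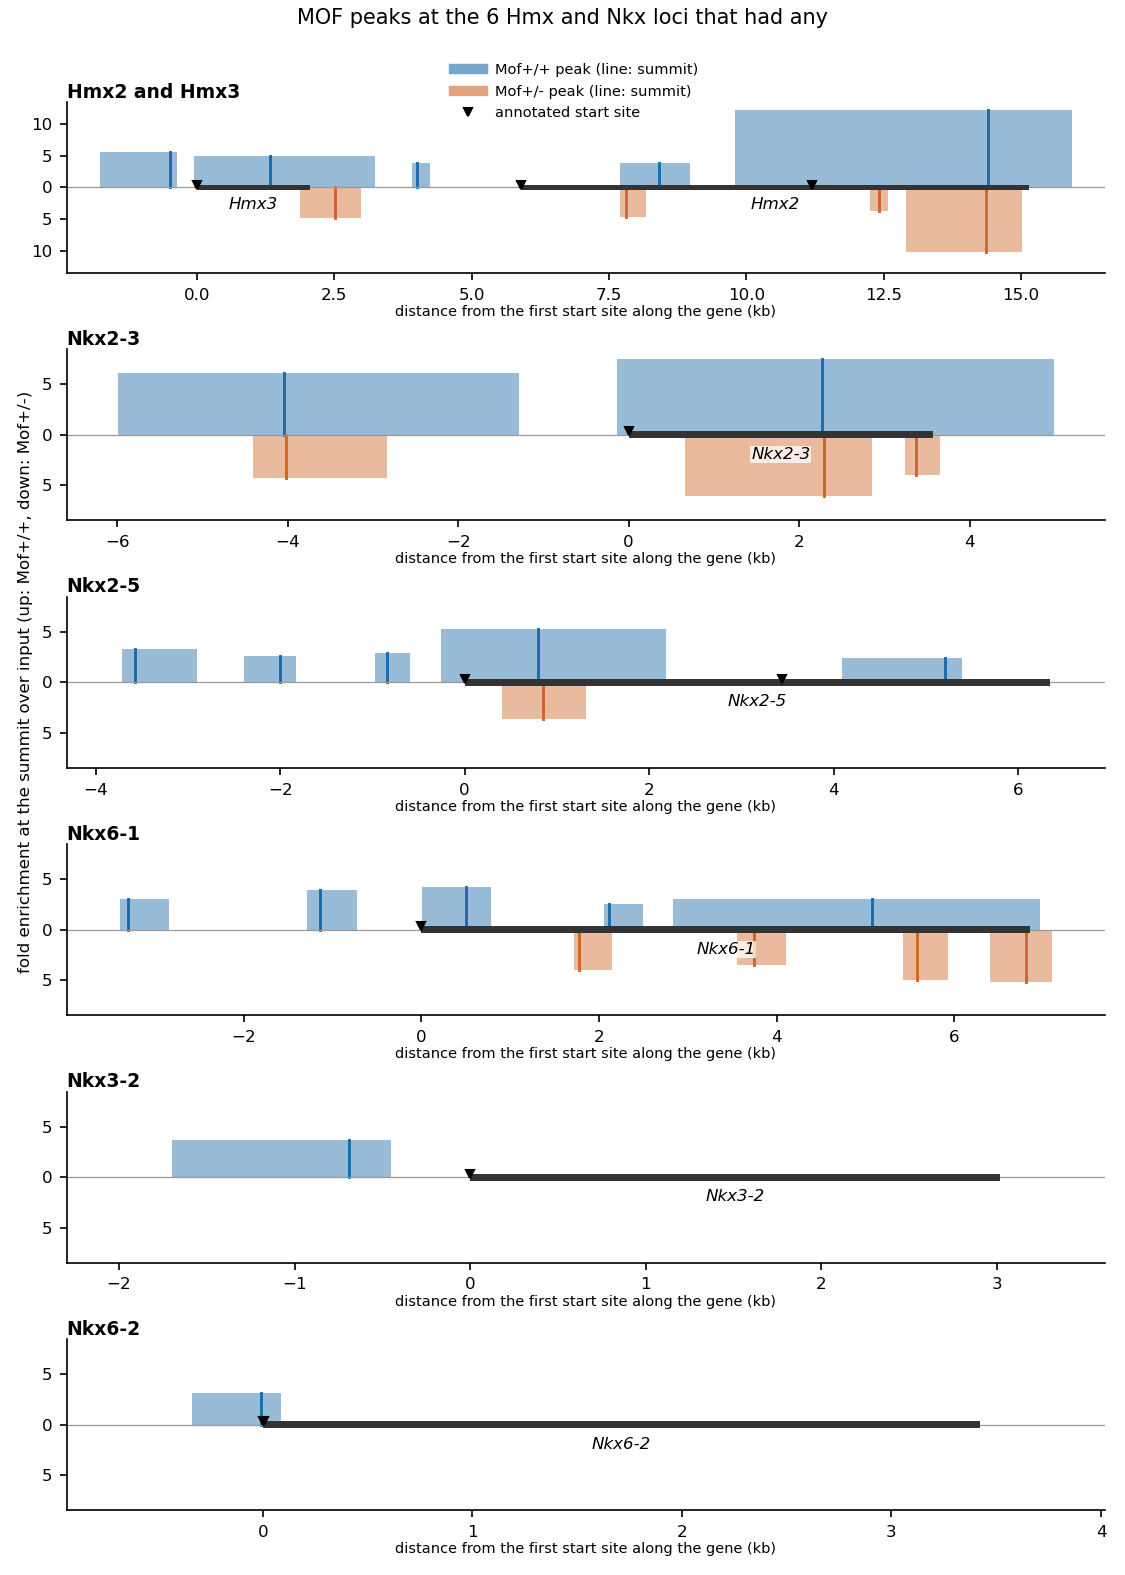
Peaks at the 6 loci that had any, drawn along the gene in its own direction; the horizontal axis is the distance in kb from the first annotated start site and the vertical axis the fold enrichment, upwards for Mof+/+ (blue) and downwards for Mof+/- (orange). Boxes span the peaks, vertical lines mark summits, black bars are gene bodies and triangles are start sites, and at Hmx2 and Nkx2-3 the summits of both genotypes face each other.

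The Hmx2 and Hmx3 locus carried the strongest binding of the family. Hmx2 (chr7:131548773-131558014, plus strand) and Hmx3 (chr7:131542867-131544925, plus strand) are neighbouring genes that act together in the vestibular part of the inner ear and in the hypothalamus. The locus held 5 Mof+/+ peaks that covered 11655 of 18148 bp (64.2%) and 4 Mof+/- peaks that covered 4029 bp (22.2%). The strongest Mof+/+ peak spanned chr7:131552666-131558799 with a fold enrichment of 12.2, the 3rd highest of the list. It held 55 fragments at the summit over a background of 3.59, a ratio of 15.3 (11.5 to 19.9). The strongest Mof+/- peak, chr7:131555767-131557876, had a fold enrichment of 10.1, the highest of its list, with 32 fragments over 2.26, a ratio of 14.2 (9.68 to 20.0). Their summits, at 131557260 and 131557220, were 40 bp apart, in a UTR of Hmx2 and 3199 and 3159 bp after its second start site. The start site of Bub3, the next gene, was nearer, 3002 bp from the Mof+/- summit.

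The other peaks of this locus were far weaker and did not all line up. The Hmx3 gene itself lay under a Mof+/+ peak, chr7:131542812-131546106, with a fold enrichment of 4.87 and a summit in its coding sequence, 1335 bp after the start site. The Mof+/- peak within it had its summit 1172 bp away, beyond the 3′ end of Hmx3, at a fold enrichment of 4.91. Upstream of Hmx3 a Mof+/+ peak, chr7:131541094-131542508, had a fold enrichment of 5.53 on 24 fragments, with its summit 489 bp before the start site, and no Mof+/- peak touched it. In an intron of Hmx2, a Mof+/+ peak of 3.76 and a Mof+/- peak of 4.71 overlapped with summits 612 bp apart. Another intronic Mof+/- peak, chr7:131555116-131555444, lay inside the large Mof+/+ peak with a fold enrichment of 3.71 on 14 fragments. A further Mof+/+ peak of 3.76 between the genes (chr7:131546789-131547112), had no Mof+/- counterpart. GENCODE M21 also places an intron of Fgfr2, a fibroblast growth factor receptor gene annotated on the minus strand from 130162451 to 133123350, across the whole locus.

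Nkx2-3 (chr19:43612325-43615892, plus strand), which is needed for the spleen and for the vessels of gut lymphoid tissue, was bound on both sides of its start site. A Mof+/+ peak, chr19:43612185-43617316, covered the entire gene with a fold enrichment of 7.52 and 33 fragments over 3.52. Inside it lay a Mof+/- peak, chr19:43612989-43615180, with a fold enrichment of 6.11 and 20 fragments over 2.44. The summits were 25 bp apart, in the coding sequence and 2271 and 2296 bp after the start site. A smaller Mof+/- peak at the end of the gene had a fold enrichment of 3.99 on 12 fragments.

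At the upstream site of Nkx2-3 both genotypes also peaked at nearly the same base. The Mof+/+ peak, chr19:43606333-43611042, had a fold enrichment of 6.13 on 35 fragments and the Mof+/- peak, chr19:43607921-43609493, one of 4.26 on 24 fragments. The summits were 18 bp apart, 4039 and 4021 bp before the start site, and the peaks also reached over the noncoding gene Gm20467 on the opposite strand. Together the peaks covered 82.6% of the 6568 bp window in Mof+/+ and 41.0% in Mof+/-, the highest shares among the members.

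Nkx2-5 (chr17:26838664-26845009, minus strand), a regulator of heart formation, had 5 Mof+/+ peaks and 1 Mof+/- peak. The strongest Mof+/+ peak, chr17:26842825-26845264, had a fold enrichment of 5.31 on 23 fragments over 3.52. The Mof+/- peak, chr17:26843690-26844603, lay inside it with a fold enrichment of 3.61 on 18 fragments over 4.26. Both summits were in an intron, 795 and 853 bp after the first start site and 2649 and 2591 bp before the second, which is the one RefSeq uses, and 58 bp apart. The remaining 4 Mof+/+ peaks had fold enrichments of 2.44 to 3.32 and no Mof+/- peak overlapped them. Just outside the 3 kb window, 4273 bp from the first start site, the Mof+/+ list had a peak of 3.39, and the Mof+/- list had one of 5.83 at 4600 bp, which was stronger than the one inside the window.

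Nkx6-1 (chr5:101658139-101664996, minus strand), a factor of pancreatic beta cells and of motor neuron progenitors, was the locus where the genotypes differed most in position. It held 5 Mof+/+ and 4 Mof+/- peaks, which covered 60.7% and 19.7% of its window. The strongest Mof+/+ peak, chr5:101664209-101664992, lay at the start of the gene with a fold enrichment of 4.20 on 18 fragments, and no Mof+/- peak overlapped it. The strongest Mof+/- peak, chr5:101657896-101658592, lay at the other end, with its summit 6803 bp after the start site and a fold enrichment of 5.21 on 16 fragments. The next, chr5:101659065-101659575, had 4.99 on 17 fragments. Both overlapped a broad Mof+/+ peak of the gene's 3′ part, chr5:101658029-101662165, whose fold enrichment was only 3.02, on 23 fragments over a background of 6.96. Nkx6-1 was thus the one locus of 4 with a higher strongest fold enrichment in Mof+/-. The input background of the strongest peaks was 3.52 fragments in Mof+/+ and 2.26 in Mof+/-, the lowest of each list and a ratio of 1.56, and its part in the difference was not tested.

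Nkx3-2 and Nkx6-2 had a listed peak in Mof+/+ alone. Nkx3-2 (chr5:41761483-41764501, minus strand), which acts in the axial skeleton and the spleen, had a single peak at chr5:41764951-41766199 with a fold enrichment of 3.67 on 18 fragments and a summit 691 bp before the start site. Nkx6-2 (chr7:139579376-139582797, minus strand), a factor of the neural tube and of oligodendrocytes, had the lowest value of the bound members, chr7:139582713-139583134, with 3.19 on 14 fragments and a summit 9 bp before the start site. Both values were under 3.68, the least that was enough in Mof+/- at its lowest background, but where the background was higher, Mof+/- member peaks were listed at 3.46 (Nkx6-1) and 3.61 (Nkx2-5). When Mof+/+ peaks had to reach the same p-value as the faintest Mof+/- peak, both genes kept theirs. Whether the genotypes differed at these genes was not tested.

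Hmx1 (chr5:35389108-35399730, plus strand), a gene of the eye and outer ear, had no peak of either list within 100 kb. The nearest was a Mof+/+ peak 175475 bp away, at the start of Trmt44. Nkx2-1 (chr12:56531958-56536908, minus strand), the thyroid and lung factor, also had none within 100 kb, and the nearest Mof+/+ peak lay 150447 bp away beside Pax9. Nkx2-2 (chr2:147177546-147194243, minus strand), which specifies ventral neurons and islet cells, had 5 Mof+/+ and 3 Mof+/- peaks within 100 kb, the nearest of them 86753 and 88353 bp away next to its neighbour Nkx2-4.

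Ordered by the strongest Mof+/+ fold enrichment, the loci ran from Hmx2 and Hmx3 through Nkx2-3, Nkx2-5, Nkx6-1 and Nkx3-2 to Nkx6-2. As fragments over background these were 15.3 (11.5 to 19.9), 9.37 (6.45 to 13.2), 6.53 (4.14 to 9.80), 5.11 (3.03 to 8.08), 4.31 (2.56 to 6.81) and 3.78 (2.07 to 6.35). Each neighbour in that order overlapped the next within its counting interval. In Mof+/- the order was Hmx2 and Hmx3, Nkx2-3, Nkx6-1 and Nkx2-5, with ratios of 14.2, 8.21, 7.08 and 4.22.

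**Figure D3:**
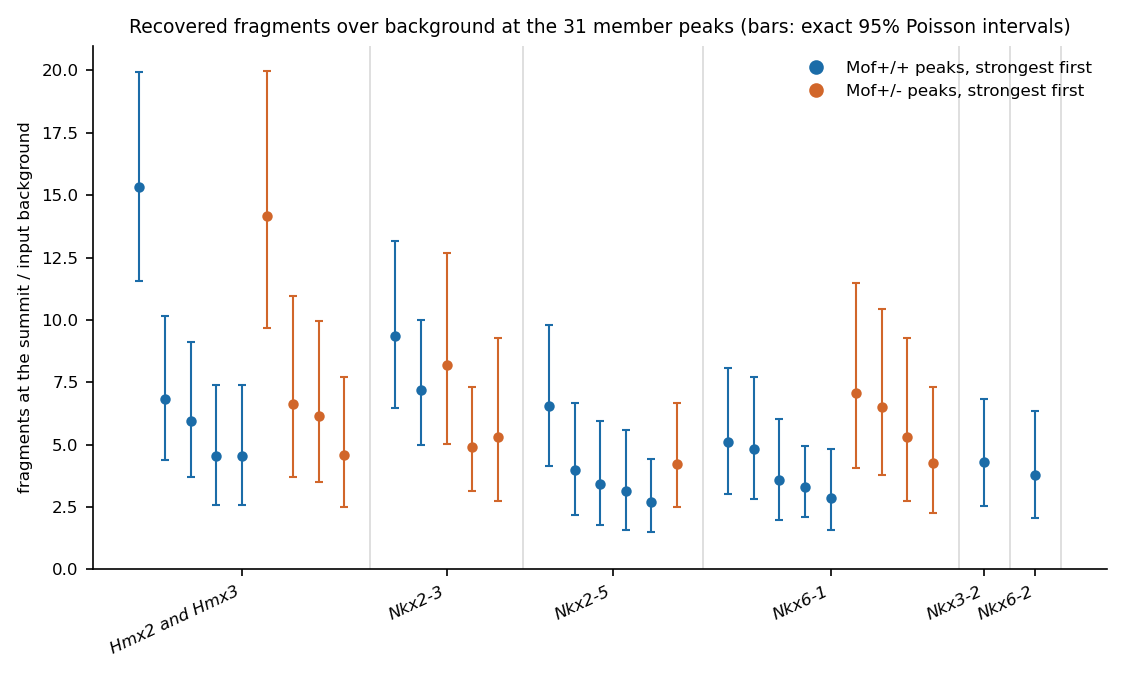
Fragments at the summit divided by the input background (vertical axis) for the 31 member peaks, grouped by locus, Mof+/+ in blue and Mof+/- in orange and strongest fold enrichment first within a locus. Bars are exact 95% Poisson intervals, and at each of the 4 loci with both genotypes the strongest Mof+/+ and Mof+/- intervals overlap.

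The comparison of genotypes asked how binding at these genes changed with a single copy of Mof. At the 4 loci with both, the strongest fold enrichment differed by -0.27 at Hmx2 and Hmx3, -0.30 at Nkx2-3, -0.56 at Nkx2-5 and 0.31 at Nkx6-1 (log2, Mof+/- minus Mof+/+). The Nkx6-1 value sets peaks 6299 bp apart against each other and is not a change at a single site. The median of the 4 values was -0.28, beside -0.17 over the 397 genes with a peak in both lists, of which 63.5% were lower in Mof+/-. Counting error alone gave intervals that held 0 in every case. As fragments over background without a pseudocount, the log2 difference was -0.11 (-0.79 to 0.54) at Hmx2 and Hmx3, -0.19 (-1.07 to 0.65) at Nkx2-3, -0.63 (-1.61 to 0.32) at Nkx2-5 and 0.47 (-0.60 to 1.52) at Nkx6-1 by an exact conditional binomial interval. At the upstream site of Nkx2-3 it was -0.54 (-1.36 to 0.25). Neither a loss nor an equal level of the strongest sites could thus be shown.

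What differed more was how much of a locus was listed. The covered length was lower in Mof+/- at all 6 loci with a peak. At Nkx3-2 and Nkx6-2 this follows from having no Mof+/- peak, and over all genes 4.06% of those with a Mof+/+ peak also had a Mof+/- peak. The covered length was 2.89 times longer in Mof+/+ at Hmx2 and Hmx3, 2.02 times at Nkx2-3, 5.25 times at Nkx2-5 and 3.08 times at Nkx6-1. The median over the 397 genes was 4.27, above the ratio of every locus but Nkx2-5. The weakest −log10 p-value was 3.25 in Mof+/+ and 4.72 in Mof+/-, and its part in these lengths was not tested. With q-values up to 0.01 in both lists, which kept the same genes, the median length over loci with a peak of that list was 3983 bp in Mof+/+ and 2042 bp in Mof+/-, beside 5111 and 2317 bp without that limit. Of the 19 Mof+/+ member peaks, 8 overlapped a Mof+/- peak (42.1%), beside 2.44% of the list. The members were chosen by peaks of both lists, so nothing is read from this excess or from the overlap shares that follow. The 19 peaks lie at 6 loci and are not independent. The 8 had a median fold enrichment of 5.09 and a median width of 3716 bp, and the other 11 had 3.32 and 573 bp. Of those 11, 7 were below the fold enrichment of 3.68 that the Mof+/- list needed at its lowest background, and of the 8, 2 were, although Mof+/- peaks at higher background were listed below that value. All 12 Mof+/- member peaks overlapped a Mof+/+ peak, beside 84.8% of the list, and 10 of the 12 lay wholly inside it, beside 77.1% of the overlapping peaks of the list.

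Member peaks lay away from start sites in Mof+/-. Only 2 of the 12 came within 1 kb of an annotated start site of any gene, beside 55.7% of the Mof+/- list, and the median summit was 2414 bp away, beside 1051.5 bp. In Mof+/+ 12 of 19 member peaks came within 1 kb, beside 55.8% of the list, although the median summit was 1901 bp away, beside 800 bp. The summits of 4 of the 12 Mof+/- peaks were within 100 bp of a Mof+/+ summit, beside 25.4% of the overlapping Mof+/- peaks of the list. These 4 were the strongest sites of Hmx2, Nkx2-3 and Nkx2-5 and the upstream site of Nkx2-3. Wide Mof+/+ peaks hold a single listed summit, so weaker local maxima inside them are not seen.

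The distance to further peaks varied between loci. Beyond the 3 kb window the nearest Mof+/+ peak was 801590 bp from Nkx6-1, 178055 bp from Nkx6-2, 132209 bp from Hmx2 and Hmx3, 53139 bp from Nkx3-2 and 30212 bp from Nkx2-3. At Nkx2-5 it was 4273 bp away. Within 100 kb there were 11 Mof+/+ peaks at Nkx2-3, 12 at Nkx2-5 and 3 at Nkx3-2, those of the gene included, while the other 3 bound loci had none but their own. The peaks furthest out but still inside the window began 2901 bp from Nkx2-5 (3.32) and 2837 bp from Nkx6-1 (3.07) in Mof+/+, and 2832 bp from Nkx2-3 in Mof+/- (4.26).

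Of the 7 other Hmx and Nkx genes, 2 had a Mof+/+ peak and 1 a Mof+/- peak. Nkx2-4 (chr2:147083316-147085445, minus strand), a close relative of Nkx2-1 with a role in the hypothalamus, resembled the bound members. Its strongest Mof+/+ peak, chr2:147082680-147086528, had a fold enrichment of 7.15 on 36 fragments and its strongest Mof+/- peak, chr2:147082777-147084708, had 5.52 on 17 fragments, and both summits lay in a UTR. The peaks covered 71.6% and 45.9% of its window. Nkx1-1, expressed in the nervous system, had a single Mof+/+ peak of 3.98 on 17 fragments in an intron. Those with no peak in either list included Nkx1-2, Nkx2-6, Nkx2-9 and Nkx6-3 (a stomach factor).

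Of 30 other homeobox genes related to the NK class, 20 had a Mof+/+ peak (66.7%) and 12 a Mof+/- peak, all 12 also bound in Mof+/+. Over all genes the shares were 44.5% and 1.89%, and in the CpG-richest decile of genes, which held 21 of the 30, they were 73.1% and 9.48%. The highest Mof+/+ fold enrichments were at Lbx1 (7.52), a gene of migrating muscle precursors, Barx1 (7.08), a gene of the stomach and teeth, and Dlx2 (6.62), a forebrain gene. The highest Mof+/- values were at Tlx2 (8.28), a gene of enteric neurons, Barx1 (7.67) and Tlx3 (7.28), a gene of sensory neurons. Lbx1 had 6.75 in Mof+/-. Hlx had 6.44 in Mof+/- and 5.75 in Mof+/+. Dlx1 and Dlx2, which are neighbours on chromosome 2, both had 6.13 in Mof+/-. The others with a Mof+/- peak were Barhl1 (3.99), Barhl2 (5.52), Dlx6 (3.99), Emx2 (4.29) and Msx1 (4.91).

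Genes that work with the members in their own organs were counted in lists of 10, to be read beside the 44.5% and 1.89% of all genes with a peak. In these lists, 6 heart genes had a Mof+/+ peak and 3 a Mof+/- peak, followed by 6 and 3 for the ventral neural tube, 6 and 3 for skeleton and spleen, 5 and 2 for inner ear and eye, 3 and 1 for lung and thyroid and 2 and 3 for the islet. Among heart genes, Gata4 had 3.87 in Mof+/+ and 5.21 in Mof+/-, and Gata6 had 4.44 and 4.95. Tbx20 was listed in Mof+/- alone, at 4.91. Mef2c had 6 Mof+/+ peaks, the strongest at 4.42, and none in Mof+/-. In the neural tube list Pax6 had 4.65 and 5.52, Mnx1 3.10 and 3.68 and Sim1 4.44 and 4.20, while Irx3 (4.85) and Ptch1 (5.09) had Mof+/+ peaks alone. In the islet list Mafa, a factor of beta cells, had 6.86 and 4.60 and Insm1 2.48 and 3.99, and Neurod1 was listed in Mof+/- alone at 3.88.

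In the skeletal and spleen list Barx1 (also in the NK class list), Wt1 (4.42 and 5.52) and Runx2 (4.65 and 3.46) had peaks in both. In the ear and eye list Dlx6 had 4.20 in Mof+/+ and 3.99 in Mof+/-, and Pax2 (3.76) had a Mof+/+ peak alone. In the lung and thyroid list Foxa1, which works with Nkx2-1, had 6.19 and 3.82, and thyroglobulin (Tg, 5.31) and Foxe1 (3.54) had Mof+/+ peaks alone. Tg is a long gene, and its 12 Mof+/+ peaks covered 4.73% of a window of 182969 bp.

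Markers of cell types were counted as well, to be read beside the 44.5% and 1.89% of all genes with a peak. With 10 genes in a list, nothing is read from Mof+/- counts of 0 or 1. Of 10 adipocyte genes, 8 had a Mof+/+ peak and 0 a Mof+/- peak, and of 10 T cell genes the numbers were also 8 and 0. All 10 B cell genes had a Mof+/+ peak and 1 had a Mof+/- peak. For mesothelial genes the numbers were 1 and 1, the gene being Wt1, and for neuron genes 1 and 0. Markers of B and T cells thus carried Mof+/+ peaks as those of the labelled tissue did, and their part in the peaks of the members was not tested.

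**Figure D4:**
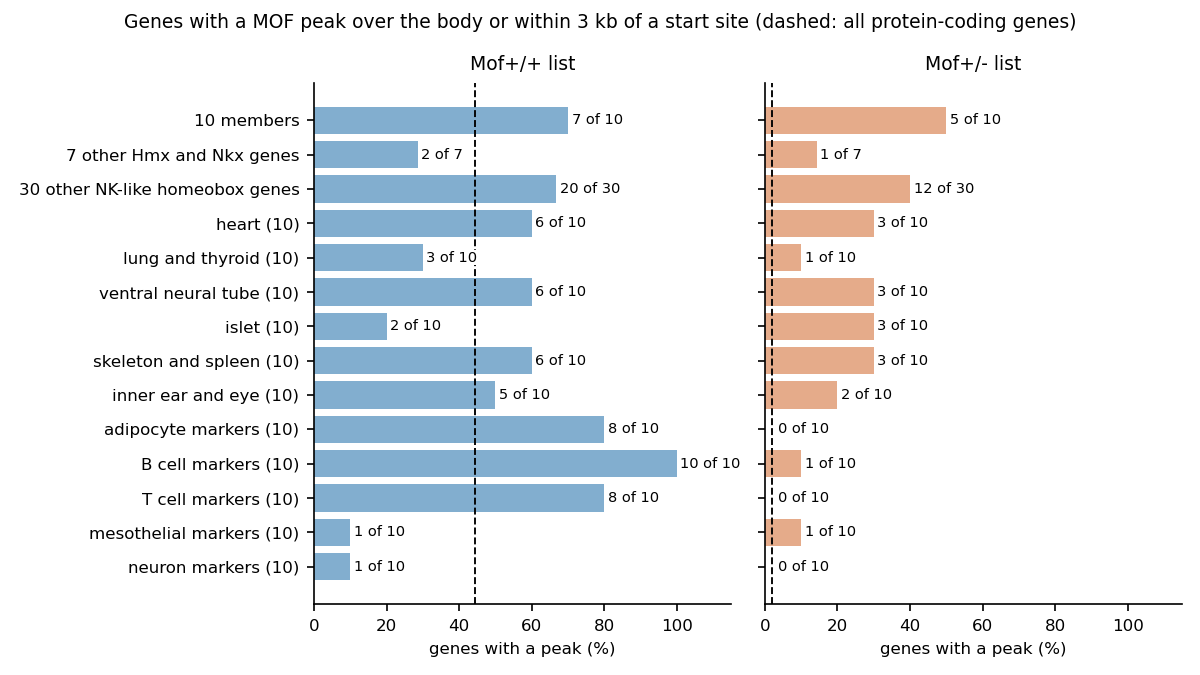
Share of genes with a peak (horizontal axis, percent) in the Mof+/+ list (left) and the Mof+/- list (right) for the members, related homeobox genes, partner genes by organ and cell type markers; numbers give genes with a peak of genes listed and the dashed line all protein-coding genes. Among the members, which were chosen by their peaks, 7 and 5 of 10 have a peak. Among adipocyte markers 8 and 0 of 10 do, beside 44.5% and 1.89% of all protein-coding genes.

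Base composition was not itself used to choose the members, and all 10 were rich in CpG at their start sites. The share of genes with a peak rose with CpG, so this trait is not independent of a choice by peaks. In the 6001 bp around the start site richest in CpG, the members had 42.2 to 59.0 CpG per kb, beside a median of 19.2 over all protein-coding genes. All 10 fell in the highest decile of genes, between the 96.5th and 99.6th percentile. Hmx1 (46.7 CpG per kb), Nkx2-1 (53.8) and Nkx2-2 (42.2), which had no listed peak, lay in much the same range as members with peaks in both lists. These were Hmx2 (46.0), Hmx3 (54.7), Nkx2-3 (49.0), Nkx2-5 (43.2) and Nkx6-1 (54.8). Nkx6-2 had the most, 59.0, and Nkx3-2 had 46.3. Members with and without a listed peak thus overlapped in CpG density.

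Across the genome the share of genes with a peak rose with CpG. It went from 1.22% in the lowest decile to 73.1% in the highest in Mof+/+, and from 0% to 9.48% in Mof+/-. The 7 of 10 members with a Mof+/+ peak and the 5 of 10 with a Mof+/- peak thus stood beside 73.1% and 9.48% of the decile that held them, whose median of 39.5 CpG per kb was below the value of every member. Of the other 7 Hmx and Nkx genes, 3 were in the highest decile, and Nkx2-4 (48.0 CpG per kb) and Nkx1-1 (63.0), the only ones of the 7 with a peak, were among them. Nkx1-2 was also among them and had no peak. Nkx2-6 and Nkx6-3, with 19.7 and 16.2 CpG per kb, lay near or below the median of all genes. Of the 30 related homeobox genes, 21 were in the highest decile, and these held all 12 with a Mof+/- peak.

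**Figure D5:**
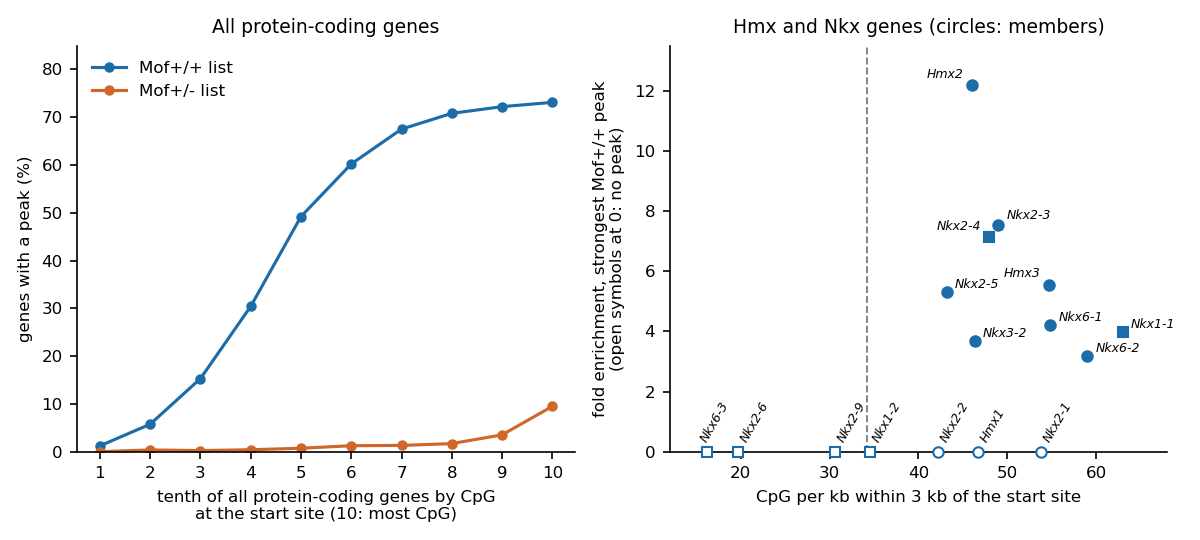
Left, the share of protein-coding genes with a peak (vertical axis, percent) by decile of CpG density at the start site, Mof+/+ in blue and Mof+/- in orange. Right, CpG per kb within 3 kb of the start site against the fold enrichment of the strongest Mof+/+ peak for Hmx and Nkx genes (circles members, squares the others, open symbols at 0 for genes with no peak, dashed line the lower bound of the highest decile), with all 10 members to the right of that line.

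Within peaks the sequence varied widely. Mof+/+ member peaks had a median of 33.7 CpG per kb (0 to 124), beside 24.5 over the list, and a median GC content of 50.8% beside 52.4%. Mof+/- member peaks had 28.3 CpG per kb (10.8 to 82.2) beside 33.1, and 49.1% GC beside 49.2%. The 8 Mof+/+ member peaks that overlapped a Mof+/- peak had a median of 34.7 CpG per kb (15.8 to 59.8) and the other 11 one of 30.5 (0 to 124), so the ranges overlapped. The chromatin had been cut with CviKI-1, an enzyme that cuts within GC preceded by a purine and followed by a pyrimidine. Such sites were found 20.3 times per kb in Mof+/+ and 16.4 times in Mof+/- member peaks, beside 21.2 and 13.4 over the lists. Their part in the differences between the lists was not tested.

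The promoters in the RefSeq table (GRCm38.p6, 250 bases before to 50 after a start site) were searched for the letters that members of these families are known to bind, on both strands. The table held 11 promoters of the 10 members, with a median of 22 CpG beside 7 over all 32851 promoters. The motif TNAAGTG, bound by NKX2 factors, and CAAGTG, bound by HMX factors, share their last bases, so the same letters can match both. They were found in 11.5% and 13.6% of all promoters, and among the members only in that of Nkx2-2, once each. TTAATTA, bound by NKX6 factors, was in 3.07% of all promoters and in none of the members' promoters.

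The genes whose strongest peaks were most like those of Hmx2 and Hmx3, by the Euclidean distance of log2 fold enrichment in both lists over 395 genes, were Bub3 and Fgfr2 (distance 0), Sp9 (0.29), Igf2bp3 (0.40) and Gm10837 (0.67). Bub3, which encodes a mitotic checkpoint protein, begins at 131560222 on chromosome 7, close to the end of Hmx2, so it and Fgfr2 shared the very same peaks. Sp9, a transcription factor gene of limb and forebrain, had 10.1 in Mof+/+ and 9.31 in Mof+/-. Igf2bp3, which encodes an RNA-binding protein of fetal tissues, had 14.9 and 8.36.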

How the data were processed

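MOF ChIP-seq of visceral WAT was analysed from 1 deposited peak list per genotype, and signal tracks were not used here. According to the study's methods the authors mapped reads to GRCm38 with snakePipes and called peaks with MACS2 (2.1.1.20160309.3) against input at a q-value of 0.1. Each list was assigned to a genotype by its file name. For every peak the authors deposited a fold enrichment, which is the ratio of summit fragments to input background that MACS2 computed. They also deposited p-values and q-values on the −log10 scale and the offset of the summit, all of which were used here. The lists had not been merged within 1000 bp. H3 libraries were not analysed here. No column of per-sample values was left out.

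Genes were taken from GENCODE M21 and sequence from GRCm38.p6, with coordinates counted from 1. Fragments and background were recovered with fold = (fragments + 1) / (background + 1) and the Poisson p-value, within 0.001 on the −log10 scale, for 19769 and 727 peaks. The recovery was tested on simulated peaks with known fragments. Intervals came from SciPy 1.17.1. Peaks overlapped when they shared 1 bp. The members, gene lists and motifs were chosen with earlier results of these data known. Named in the text were all members, the 7 other Hmx and Nkx genes, genes under member peaks, from each partner list the genes with a Mof+/- peak and the 3 highest in Mof+/+, and the 5 genes most like Hmx2 and Hmx3. Of these, 2 genes are not reported here. No alignment of homeodomains was made. Alternatives covered the window, the threshold, merging, overlap, the choice of the strongest peak and the pseudocount.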

Additional observations from a re-analysis of the deposited data

How the results depend on the processing

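No paired analysis was possible because the columns of both lists carry no replicate number, and no replicate could be left out for the same reason. Over 12 results and 70 alternatives, 59 values stayed within 1.5 times the main value (0.58 for the log2 difference), 11 moved further and 0 changed sign. Only the log2 difference could change sign, and its limit of 0.58 was wider than its main value of -0.28. With peaks within 1 kb of a start site and the gene body left out, the members with a Mof+/- peak went from 5 to 2 (Nkx2-3 and Nkx2-5), the other Hmx and Nkx genes with a Mof+/+ peak from 2 to 1, the member peaks from 19 to 11 in Mof+/+ and from 12 to 2 in Mof+/-, and the median covered length from 5111 to 1100.5 bp and from 2317 to 466 bp. With q-values up to 0.001 the member peaks numbered 12 and 7, all 7 overlapping a Mof+/+ peak. Merging within 1000 bp left 11 Mof+/+ member peaks. With a window of 10 kb the median distance between summits went from 49 to 2769.5 bp and the median log2 difference from -0.28 to -0.07, since a stronger Mof+/- peak of Nkx2-5 entered. The 7 members with a Mof+/+ peak kept it under all alternatives but the q-value of 0.001, which left 6 by taking out Nkx6-2; the same cutoff took Nkx2-5 from the 5 with a Mof+/- peak. Peaks rested on as few as 11 fragments, and no value here has an error between animals.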

Other observations

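In the region of chromosome 2 that holds Nkx2-2 and Nkx2-4, all 3 Mof+/- peaks within 100 kb of Nkx2-2 lay at or just before Nkx2-4, while Nkx2-2 itself had none. On chromosome 12, Nkx2-1 and its neighbour Nkx2-9 had no peak, and the nearest Mof+/+ peak to both, chr12:56687355-56688077 with a fold enrichment of 3.54, lay beside Pax9. These are values of single lists and were not tested.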
